A study of Homo sapiens with 5 samples.

Results

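The D-type cyclins CCND2 and CCND3, the kinases CDK4 and CDK6, the inhibitors CDKN1A and CDKN1B and the transcription factor E2F1 form the core of the machinery that takes a cell through the G1 phase of its cycle. Peaks from chromatin immunoprecipitation of the lymphoma line U2932 were taken as belonging to these 7 genes when any base lay within 5 kb of the gene's span on the human build hg19. By this rule 401 of the 1150695 peaks in the 6 deposited lists were members. Called against the IgG control, they were 13 of 13499 peaks of PRDM11 antibody 1, 130 of 465837 peaks of PRDM11 antibody 2 and 55 of 50161 peaks of RNA polymerase II. Called against input, the numbers were 13 of 54038, 123 of 486796 and 67 of 80364.

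Mitogen signals induce D-type cyclins, which bind and activate CDK4 and CDK6. These kinases phosphorylate the retinoblastoma protein, releasing E2F transcription factors such as E2F1, which switch on the genes of DNA replication. CDKN1A (p21) and CDKN1B (p27) bind cyclin-kinase complexes and hold the cycle back. CDKN1A is a classical target of p53, and CDKN1B a classical target of FOXO factors. B lymphocytes mainly use CCND2 and CCND3 among the D-type cyclins.

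The libraries came from untreated U2932 cells, a human line established from a diffuse large B-cell lymphoma, whose chromatin was cross-linked and sonicated. Antibody 1 and antibody 2 are non-commercial rabbit polyclonal antibodies against PRDM11, a PR domain protein; the third precipitate used a commercial RNA polymerase II antibody, and rabbit IgG and input DNA served as controls. There was 1 library of each kind, all from 1 cell line, so spread between replicates could not be measured and nothing was tested. The lists hold positions only, the depth is unknown, and a longer peak cannot be read as a stronger one. Intervals in parentheses are exact 95% binomial (Clopper-Pearson) intervals over peaks; they cover counting error only and treat peaks as independent, which peaks at 1 gene are not.

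Against IgG, antibody 1 had peaks at 5 of the 7 genes: 2 at CCND2, 3 at CCND3, 3 at CDK4, 1 at CDK6 and 4 at CDKN1B. CDKN1A and E2F1 had none. RNA polymerase II had peaks at 6 genes, with 16 at CDKN1B, 10 at E2F1, 8 at CCND3 and 7 each at CDK4, CDK6 and CDKN1A, and none at CCND2. Antibody 2 had peaks at all 7 genes, from 3 at CDKN1B to 57 at CDK6. CDKN1B combined the most antibody 1 and polymerase peaks with the fewest antibody 2 peaks. By bases, however, antibody 2 peaks covered a larger share of the CDKN1B window, 7.8%, than of any other window.

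**Figure D1:**
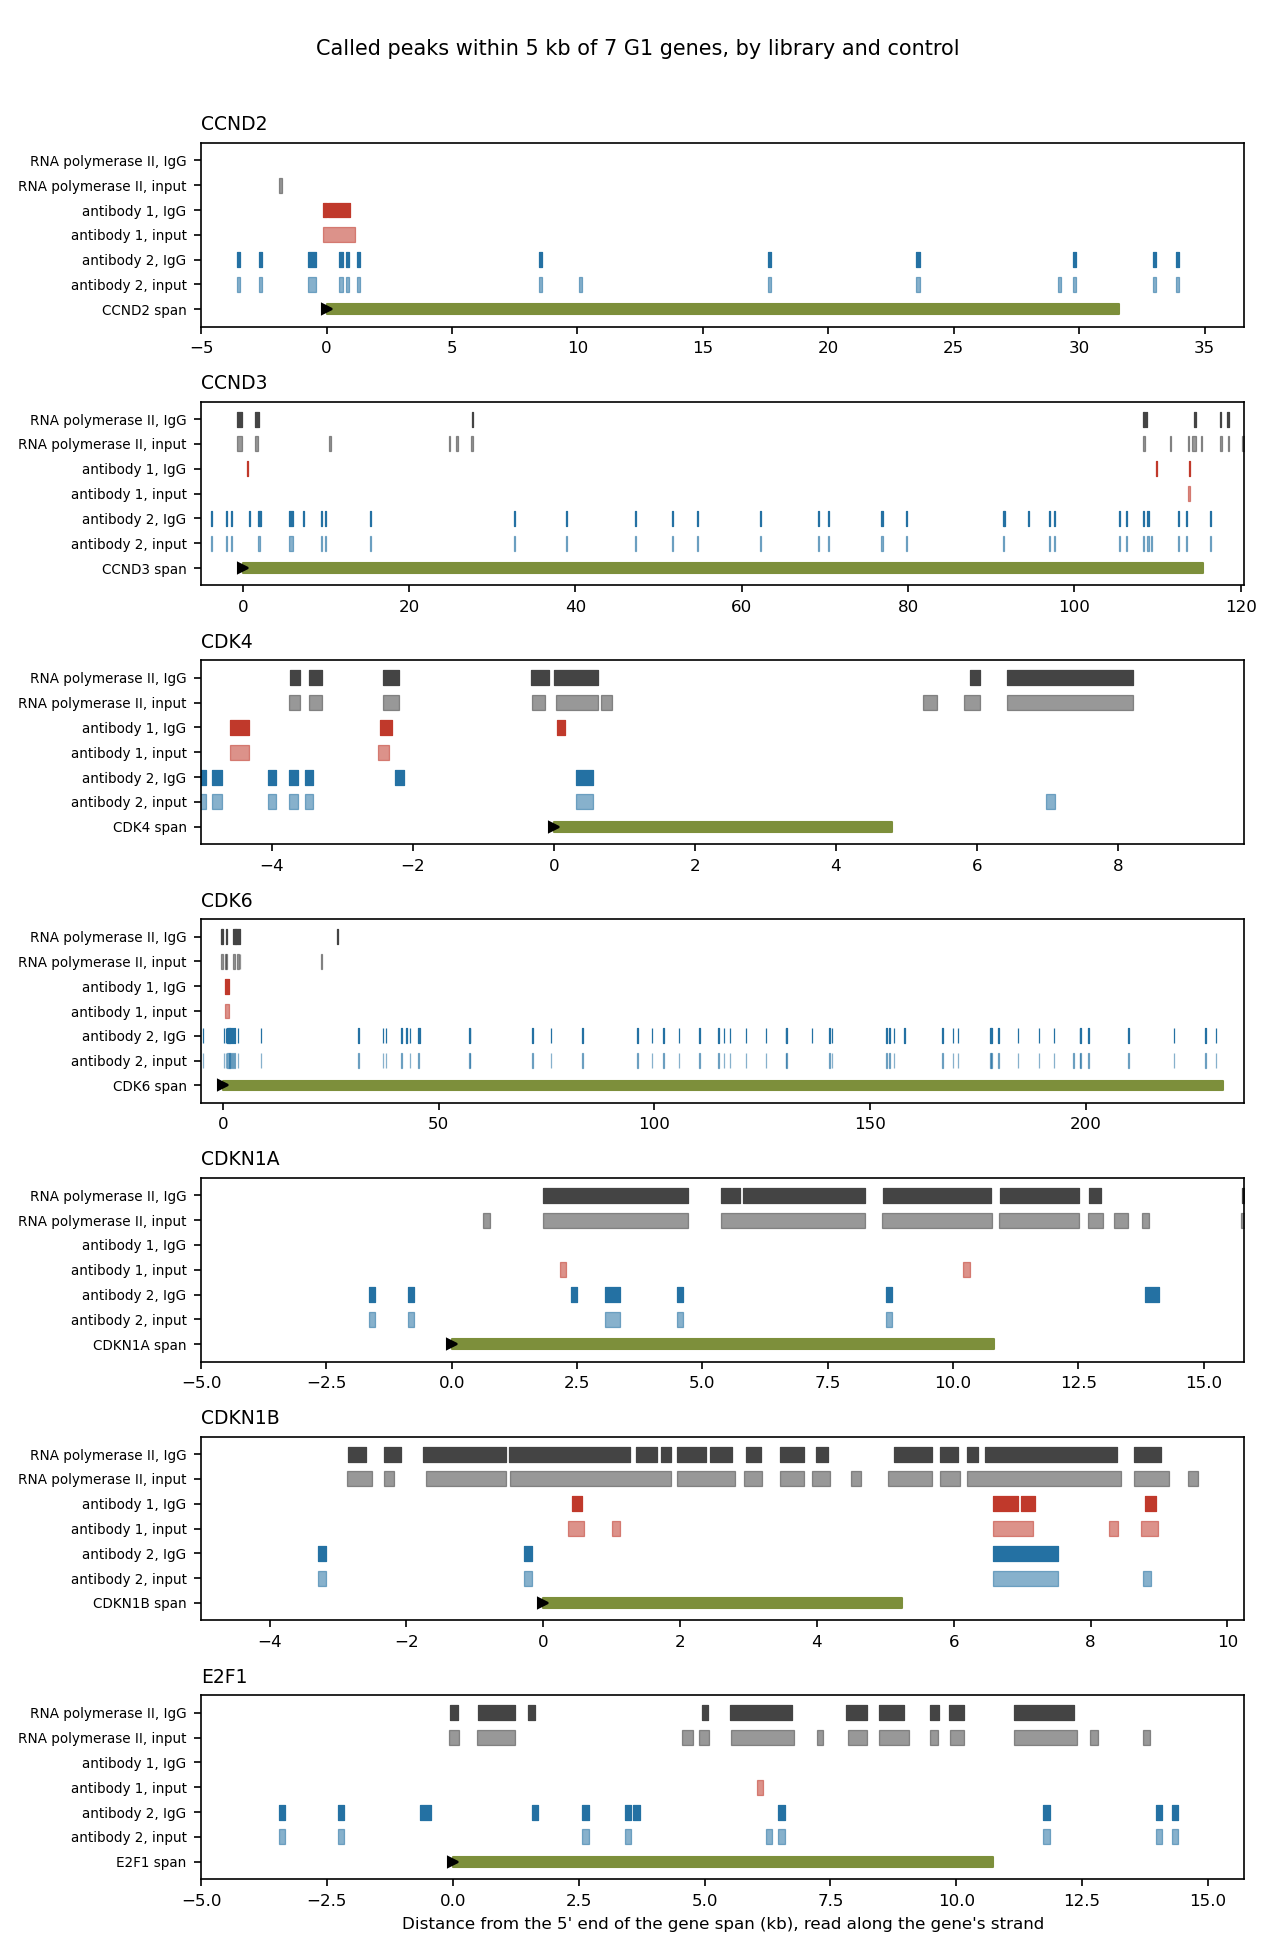
Called peaks of the 6 lists within 5 kb of each gene span, 1 panel per gene. The horizontal axis is the distance from the 5′ end of the span in kb, read along the gene's strand (the axis differs between panels); each row of boxes is 1 library and control, and the green bar is the gene span. RNA polymerase II boxes fill much of CDKN1A and CDKN1B, and the widest antibody 1 boxes lie at the 5′ ends of CCND2 and CDK6.

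Spans differ greatly in length, from 4795 bp for CDK4 to 231674 bp for CDK6, so windows of equal size were compared next. In the 10 kb centred on the 5′ end of the span, antibody 1 had a peak at 5 of 7 genes, whereas 3.60% of all 10-kb tiles of chromosomes 1 to 22 and X held one. RNA polymerase II had a peak in 6 of 7 windows, against 7.34% of tiles. For antibody 2 the count was 7 of 7, but 73.0% of tiles also held a peak, so presence alone says little for this library. The tiles include gene-poor stretches and assembly gaps, and the rate over all gene starts was not analysed here. Against input, antibody 1 was present in 5 of 7 windows (9.21% of tiles), antibody 2 in 7 of 7 (73.1%) and RNA polymerase II in 7 of 7 (9.67%). The 5 genes of antibody 1 differed between controls: CCND3 lost its peak in this window against input, and CDKN1A gained 1.

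**Figure D2:**
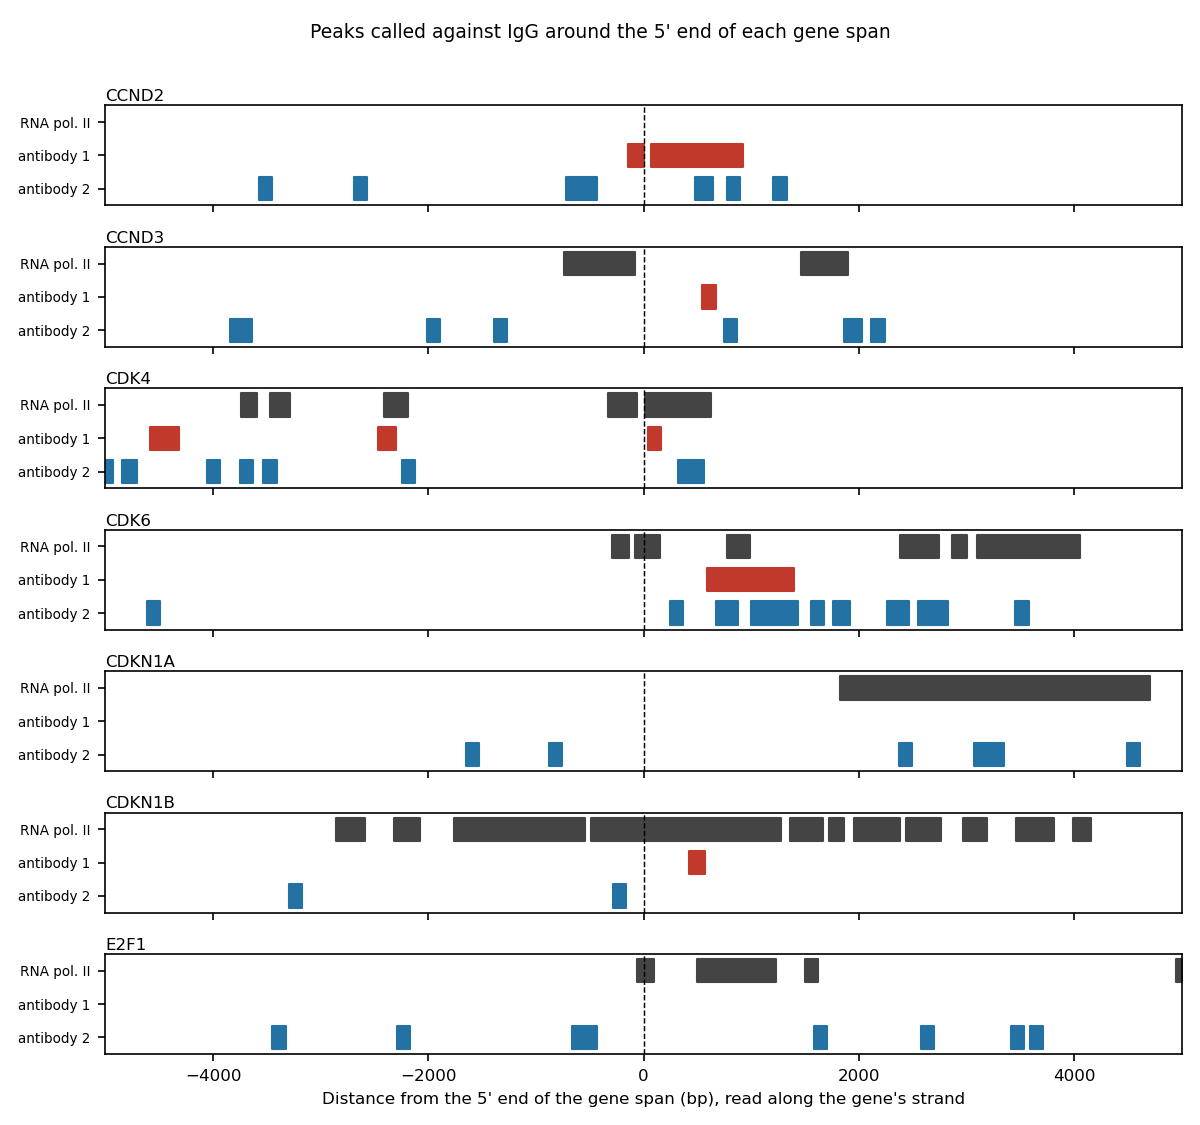
Peaks called against IgG within 5000 bp of the 5′ end of each gene span (dashed line), 1 panel per gene; the horizontal axis is the distance in bp along the gene's strand and each box is 1 peak. Antibody 1 peaks lie within 1 kb of the line at CCND2, CCND3, CDK4, CDK6 and CDKN1B, and the CCND2 panel holds no RNA polymerase II peak.

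CCND2, the D-type cyclin that B cells induce after antigen receptor stimulation, spans chr12:4382938-4414516 on the plus strand. It had 2 antibody 1 peaks against IgG. The first, chr12:4382788-4382944 (157 bp), lay across the 5′ end of the span. The second, chr12:4383009-4383857 (849 bp), was the widest antibody 1 peak at any of the 7 genes in this list, and 2.79% of the whole antibody 1 list was as wide. Against input a single antibody 1 peak of 1278 bp, chr12:4382796-4384073, covered nearly the same stretch. Thus both controls gave an antibody 1 peak at the start of CCND2, and the 500 kb on each side of the window held none against IgG and 4 against input.

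Antibody 2 had 12 peaks at CCND2 against IgG. Peaks of 165 bp (chr12:4383414-4383578) and 123 bp (chr12:4383713-4383835) lay inside the 849 bp antibody 1 peak and covered 288 bp of it. The widest antibody 2 peak of the window, chr12:4382214-4382503 (290 bp), lay 285 bp before the first antibody 1 peak without touching it. No RNA polymerase II peak lay in the window against IgG, and the nearest one was 47045 bp from the 5′ end. Against input, polymerase had 1 peak at CCND2, of 129 bp, the minimum width of its list, centred at -1848 bp from the 5′ end (negative values lie upstream). CCND2 is therefore the gene of the 7 where antibody 1 was widest while called polymerase was absent against IgG and minimal against input. A lack of a called peak does not show that polymerase is absent.

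CCND3, the cyclin most used by germinal centre B cells, spans chr6:41902671-42018095 on the minus strand. Its 3 antibody 1 peaks were narrow: chr6:42017427-42017549 (123 bp), chr6:41908146-41908313 (168 bp) and chr6:41904232-41904357 (126 bp). None touched an antibody 2 or RNA polymerase II peak against IgG. Only the last was found again against input, where it was 211 bp wide (chr6:41904207-41904417) and overlapped a polymerase peak by 156 bp. The gaps to the nearest antibody 2 peak were 75, 844 and 166 bp in the same order, in a window where antibody 2 had 26.3 peaks per 100 kb. Antibody 1 density at CCND3 was 2.39 peaks per 100 kb against 1.60 in its surroundings with the IgG control, and 0.797 against 2.60 with input.

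The 8 polymerase peaks of CCND3 against IgG lay towards the ends of the span, apart from 1 of 176 bp centred 27617 bp from the 5′ end. The widest, chr6:42018174-42018836 (663 bp), lay just outside the 5′ end, and a peak of 435 bp was centred 1679 bp inside it. Peaks of 164 bp and 277 bp were centred 108678 and 108387 bp from the 5′ end. In the RefSeq promoter table of build GRCh38.p14, CCND3 has 3 starts, of which the inner ones lie 106880 and 109483 bp inside the outermost; these positions were not carried over to hg19. The same reference places TAF8 within 5 kb on the 5′ side and BYSL on the 3′ side, so peaks at the ends of the window need not belong to CCND3. Antibody 2 had 33 peaks, of which 25 were of the minimum width of 123 bp. The widest of them, chr6:42011999-42012524, measured 526 bp, a width that 0.129% of the antibody 2 list reached, and was the same against input.

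The promoter bases of CCND3, CDK4, CDK6, CDKN1B and E2F1 are shown because an antibody 1 or polymerase peak lay within 500 bp of the 5′ end of each of these spans. They are the 250 bases before the outermost RefSeq start in GRCh38.p14, 5′ to 3′ on the gene's strand; 6 of the 7 genes were in this table, all but CCND2. Capitals mark matches, on either strand, to the GC box (GGGCGG), the CCAAT box (CCAAT), the E box (CACGTG) and the E2F motifs TTTGGCGC and TTTCGCGC. Where the hg19 peaks lie relative to these bases was not determined, since the builds differ. A match is a description of letters and not a bound site. The sequences lie at chr6:42048689-42048938, minus strand (CCND3), chr12:57752311-57752560, minus strand (CDK4), chr7:92836574-92836823, minus strand (CDK6), chr12:12717118-12717367, plus strand (CDKN1B) and chr20:33686386-33686635, minus strand (E2F1).
CCND3: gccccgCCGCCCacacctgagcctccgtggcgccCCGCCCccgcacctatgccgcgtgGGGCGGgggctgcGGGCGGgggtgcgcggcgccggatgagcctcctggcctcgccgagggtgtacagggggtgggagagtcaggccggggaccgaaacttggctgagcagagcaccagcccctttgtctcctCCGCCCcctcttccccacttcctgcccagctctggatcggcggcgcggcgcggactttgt
CDK4: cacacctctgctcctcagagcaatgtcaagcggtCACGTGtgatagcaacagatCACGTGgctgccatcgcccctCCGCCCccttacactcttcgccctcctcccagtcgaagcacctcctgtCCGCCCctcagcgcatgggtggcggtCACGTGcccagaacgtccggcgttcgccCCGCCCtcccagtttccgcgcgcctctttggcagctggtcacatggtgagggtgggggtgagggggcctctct
CDK6: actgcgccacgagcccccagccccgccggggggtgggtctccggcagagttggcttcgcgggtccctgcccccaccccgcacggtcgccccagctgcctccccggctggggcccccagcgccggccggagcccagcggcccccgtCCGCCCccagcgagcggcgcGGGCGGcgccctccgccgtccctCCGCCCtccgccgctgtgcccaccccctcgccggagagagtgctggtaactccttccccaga
CDKN1B: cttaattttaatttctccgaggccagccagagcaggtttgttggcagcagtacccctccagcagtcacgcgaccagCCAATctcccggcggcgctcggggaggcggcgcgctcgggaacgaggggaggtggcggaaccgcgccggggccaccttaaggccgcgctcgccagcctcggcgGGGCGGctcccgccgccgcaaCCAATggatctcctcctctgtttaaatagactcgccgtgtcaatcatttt
E2F1: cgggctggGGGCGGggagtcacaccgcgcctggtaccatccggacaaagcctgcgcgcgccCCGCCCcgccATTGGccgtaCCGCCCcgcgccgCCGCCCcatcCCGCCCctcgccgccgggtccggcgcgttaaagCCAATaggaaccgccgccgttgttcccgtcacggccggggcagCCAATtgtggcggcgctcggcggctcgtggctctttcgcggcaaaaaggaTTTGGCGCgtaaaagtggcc

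The printed stretches share a high content of G and C, from 64.4% at CDKN1B to 80.0% at CDK6, where the median over all 35116 RefSeq promoters of this length was 58.0%. Each of the 5 holds at least 1 GC box, with 5 at CCND3 and E2F1, 3 at CDK4 and CDK6 and 1 at CDKN1B. Of the 9 promoters listed for the members, 7 hold a GC box, and the inner CDK6 start is 1 of those without. GC boxes were found in 42.6% of all promoters. CDK4 holds 3 E boxes, the motif that MYC binds with MAX; 6.34% of promoters hold any and 0.0797% hold 3 or more. E2F1 alone of the 9 promoters listed for the members holds an E2F motif, TTTGGCGC, which 0.550% of all promoters hold, and it has 3 CCAAT boxes. CDKN1B has 2 CCAAT boxes, a motif present in 32.0% of promoters.

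CDK4, a catalytic partner of the D-type cyclins, spans chr12:58141510-58146304 on the minus strand. Antibody 1 had 3 peaks against IgG. The narrowest, chr12:58146140-58146262, had the minimum width of 123 bp, began 42 bp inside the 5′ end and lay wholly within a polymerase peak of 622 bp (chr12:58145674-58146295). It was not found against input. A peak of 167 bp, chr12:58148601-58148767, was centred at -2380 bp from the 5′ end and shared 118 bp with a polymerase peak. The widest, chr12:58150623-58150891 (269 bp), was centred at -4453 bp and touched neither other library. Both of these upstream peaks were found again against input, at 148 bp and 273 bp.

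No antibody 1 peak at CDK4 overlapped an antibody 2 peak; the gaps were 159, 52 and 116 bp. The widest of the 7 antibody 2 peaks, chr12:58145742-58145981 (240 bp), lay inside the 622 bp polymerase peak. The widest polymerase peak of the window, chr12:58138089-58139870 (1782 bp), was centred 2531 bp past the 3′ end. In GRCh38.p14 TSPAN31 overlaps CDK4 and MARCHF9 lies within 5 kb on its 5′ side, so peaks away from the 5′ end of the span cannot be assigned to CDK4 alone. Polymerase peaks numbered 47.3 per 100 kb in the window and 8.30 in its surroundings, and antibody 1 peaks 20.3 and 1.70.

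CDK6, the other kinase partner of D-type cyclins, has the longest span, chr7:92234235-92465908 on the minus strand. Its single antibody 1 peak, chr7:92464516-92465316 (801 bp), was centred 992 bp inside the 5′ end and was found again against input at 932 bp (chr7:92464364-92465295). Of the antibody 1 list against IgG, 3.36% was as wide. This peak overlapped both other libraries: antibody 2 peaks of 432 bp (chr7:92464476-92464907) and 198 bp (chr7:92465036-92465233) covered 590 bp of it, and a polymerase peak of 215 bp (chr7:92464918-92465132) lay inside it. No other antibody 1 peak occurred over the remaining span under either control.

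Polymerase peaks at CDK6 numbered 7 under each control, and 6 of the 7 against IgG lay in the 10 kb around the 5′ end. The widest, chr7:92461851-92462816 (966 bp), was centred 3575 bp inside the span. RefSeq lists a second CDK6 start in GRCh38.p14 that lies 2614 bp inside the outermost. Antibody 2 had 57 peaks in the window, 43 of them of 123 bp, at 23.6 per 100 kb against 15.9 in the surroundings. They were most crowded at the 5′ end, where 9 peaks covered 1779 bp of 10 kb; 0.0234% of tiles were covered as much. The start of CDK6 was thus the stretch, among the 7 starts, with most antibody 2 coverage. The same held against input with 1816 bp, but there 0.239% of tiles were covered as much.

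CDKN1A, which encodes the inhibitor p21, spans chr6:36644305-36655116 on the plus strand. RNA polymerase II filled it in long stretches: chr6:36646130-36649009 (2880 bp), chr6:36650110-36652553 (2444 bp), chr6:36652913-36655054 (2142 bp) and chr6:36655238-36656813 (1576 bp). Only 97 of the 50161 polymerase peaks, 0.193%, were as wide as the first. In all, 46.7% of the CDKN1A window lay in polymerase peaks, against 2.99% of its surroundings, and 50.5% against 3.51% with the input control. The first long peak began 1825 bp inside the 5′ end, and the last lay just past the 3′ end of the span. Against input a polymerase peak of 149 bp, chr6:36644919-36645067, began nearer, 614 bp inside the 5′ end. It was not found against IgG. Whether the 5′ end of the span used here is the main transcription start in U2932 was not determined for CDKN1A, CCND3 or CDK6, so a gap at that end does not show that polymerase is missing from the start.

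Antibody 1 had no peak at CDKN1A against IgG. The nearest one was 49199 bp from the 5′ end. Against input it had 2 narrow peaks, chr6:36646466-36646588 (123 bp) and chr6:36654507-36654651 (145 bp), each inside a long polymerase peak and neither found against IgG. Antibody 2 had 7 peaks against IgG, 4 of which lay inside or across polymerase peaks; the widest was chr6:36647371-36647656 (286 bp). CDKN1A therefore carried the widest polymerase peak of the 7 genes and antibody 1 calls under the input control alone. In GRCh38.p14 the noncoding genes PANDAR and DINOL lie within 5 kb of CDKN1A or overlap it.

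CDKN1B, which encodes the inhibitor p27, spans chr12:12870058-12875305 on the plus strand. It was the densest in polymerase: 16 peaks, 105 per 100 kb against 1.60 in the surroundings, which covered 57.2% of the window against 0.585% of the surroundings. A peak of 1765 bp, chr12:12869565-12871329, lay across the 5′ end, another of 1215 bp came before it, and the widest, chr12:12876520-12878442 (1923 bp), lay past the 3′ end of the span. Of the 16 peaks, 3 lay wholly upstream of the 5′ end, where GPR19 is within 5 kb in GRCh38.p14, so these cannot be assigned to CDKN1B alone. The gaps between neighbouring polymerase peaks ran from 51 to 964 bp with a median of 137 bp. In the 10 kb around the 5′ end polymerase covered 5444 bp, as much as in 0.0672% of tiles. Against input polymerase covered 5928 bp there, as much as in 0.246% of tiles.

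Polymerase peaks covered 57.2% of the CDKN1B window, and 55.2% of the whole antibody 1 list overlapped polymerase. The 4 antibody 1 peaks of CDKN1B all lay inside polymerase peaks. One, chr12:12870478-12870632 (155 bp), was centred 497 bp inside the 5′ end. A pair past the 3′ end, chr12:12876634-12876994 (361 bp) and chr12:12877049-12877247 (199 bp), lay wholly within the widest antibody 2 peak of any of the 7 genes, chr12:12876634-12877576 (943 bp), and within the 1923 bp polymerase peak. Against input the pair appeared as 1 peak of 588 bp, and the antibody 2 peak was unchanged. Of the whole antibody 2 list, 68 peaks or 0.0146% were as wide. The last antibody 1 peak, chr12:12878855-12879015 (161 bp), lay in a polymerase peak of 390 bp. All 4 were found again against input. This 3′ stretch was centred between 1509 and 3630 bp past the span for the 3 antibody 1 peaks, and APOLD1 and the noncoding LOC105369663 lie within 5 kb on that side in GRCh38.p14, so these peaks cannot be assigned to CDKN1B alone.

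E2F1, which encodes the transcription factor released at the end of G1, spans chr20:32263489-32274210 on the minus strand. Polymerase had 10 peaks against IgG. A peak of 163 bp, chr20:32274112-32274274, lay across the 5′ end, and one of 735 bp was centred 862 bp inside it. The widest, chr20:32267468-32268698 (1231 bp), was centred 6127 bp inside the span, and one of 1199 bp (chr20:32261874-32263072) lay past the 3′ end, where NECAB3 is the neighbour in GRCh38.p14. They covered 24.1% of the window, against 2.29% of the surroundings.

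At E2F1, as at CDKN1A, antibody 1 had no peak against IgG. Its nearest peak was 17421 bp from the 5′ end. Against input 1 antibody 1 peak of the minimum width, chr20:32268048-32268170 (123 bp), lay within the 1255 bp polymerase peak of that list. Antibody 2 had 11 peaks against IgG, 53.1 per 100 kb, the highest density of the 7 windows in that list, with 21.6 in the surroundings. Of these, 9 had the minimum width, and the widest, chr20:32274648-32274871 (224 bp), lay 438 bp before the 5′ end and was not present against input. With the input control CDK4 (47.3 per 100 kb) stood above E2F1 (43.4).

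**Figure D3:**
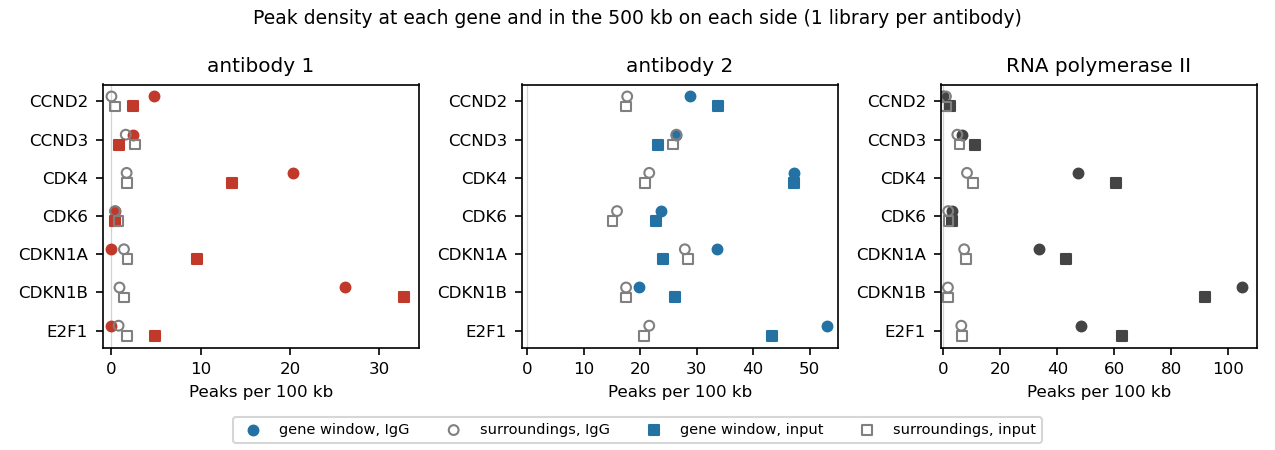
Peaks per 100 kb in each gene window (filled) and in the 500 kb on each side (open), for lists called against IgG (circles) and input (squares), 1 panel per library with its own scale. CDKN1B stands highest for RNA polymerase II (105 and 91.8 per 100 kb) and for antibody 1 (26.2 and 32.8), while antibody 2 stays between 19.7 and 53.1 at every gene against IgG.

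Set side by side, the densities ordered the genes differently in each library. For polymerase the order against IgG was CDKN1B (105 per 100 kb), E2F1 (48.3), CDK4 (47.3), CDKN1A (33.6), CCND3 (6.38), CDK6 (2.90) and CCND2 (0). For antibody 1 it was CDKN1B (26.2), CDK4 (20.3), CCND2 (4.81), CCND3 (2.39), CDK6 (0.414), then CDKN1A and E2F1 (0). Against input the antibody 1 order was CDKN1B (32.8), CDK4 (13.5), CDKN1A (9.61), E2F1 (4.83), CCND2 (2.41), CCND3 (0.797) and CDK6 (0.414), so CDKN1A and E2F1 moved above CCND2. With 1 library each and 0 to 4 antibody 1 peaks per gene, neighbours in this order cannot be told apart. Long spans lower the density of genes whose peaks sit at the start, as at CDK6. The surroundings held 0 to 1.70 antibody 1 peaks per 100 kb against IgG and 0.400 to 2.60 against input.

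**Figure D4:**
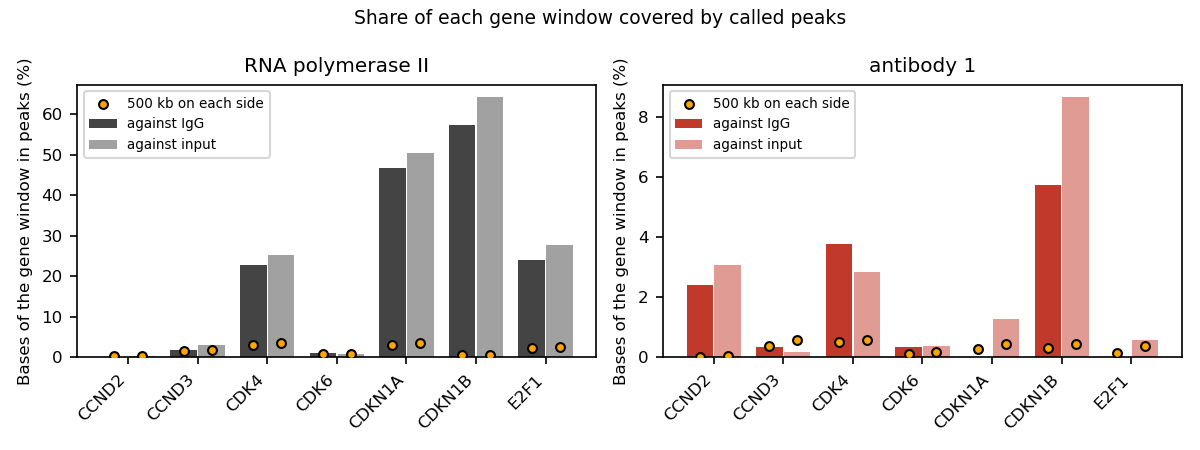
Share of the bases of each gene window that lie in called peaks of RNA polymerase II (left) and antibody 1 (right, another scale), as bars from 0 for lists called against IgG (dark) and input (light); orange points give the share in the 500 kb on each side. Polymerase coverage is highest at CDKN1B (57.2% against IgG) and CDKN1A (46.7%), and the CDKN1A and E2F1 bars of antibody 1 exist for input only.

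As to how far PRDM11 antibody peaks at these genes coincide with each other and with polymerase, antibody 2 was overlapped by 4 of the 13 peaks of antibody 1, or 30.8% (9.09% to 61.4%), and 47.2% of the whole antibody 1 list did. Polymerase was overlapped by 7 of 13, or 53.8% (25.1% to 80.8%), against 55.2% of the list. Both intervals include the share of the list. Against input the values moved apart: 11 of 13, or 84.6% (54.6% to 98.1%), overlapped polymerase. Of that list 44.9% did, a share below the interval. The 11 included all 5 input peaks of CDKN1B, the 2 of CDKN1A and the 1 of E2F1, so they are not independent draws. Overlap with antibody 2 in the input lists was 4 of 13, or 30.8%, with 34.8% of the list. The 3 peaks that overlapped both lay at CDK6 and CDKN1B, and the 849 bp peak of CCND2 overlapped antibody 2 alone. Peaks of 500 bp or wider were 2 of 13, or 15.4% (1.92% to 45.4%), with 10.7% in the list; they were those of CCND2 and CDK6. The median width was 167 bp at the genes and 184 bp in the list.

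Seen from polymerase, 6 of its 55 peaks against IgG, or 10.9% (4.11% to 22.2%), overlapped an antibody 1 peak, with 14.3% in its list. Against input it was 10 of 67, or 14.9% (7.4% to 25.7%), with 29.4% in that list, a share above the interval. An excess over the list, as seen from antibody 1 against input, was thus not seen from polymerase. Wide polymerase peaks were more frequent here: 10 of 55, or 18.2% (9.08% to 30.9%), reached 1000 bp, against 4.15% of the list. These 10 lay at CDKN1A (4), CDKN1B (3), E2F1 (2) and CDK4 (1), and none at a cyclin gene or at CDK6. Of them, 2 overlapped antibody 1 peaks, both at CDKN1B. For antibody 2, 5 of 130 peaks, or 3.85% (1.26% to 8.75%), overlapped antibody 1 with 1.59% in the list, which the interval includes. Against input it was 6 of 123, or 4.88% (1.81% to 10.3%), with 5.05% in the list. In the IgG lists 20 of 130 antibody 2 peaks, or 15.4% (9.66% to 22.8%), overlapped polymerase, with 3.20% in the whole list. Polymerase peaks were denser in the window than in its surroundings at 6 of the 7 genes, all but CCND2, and the part of this in the antibody 2 share was not tested. Antibody 2 peaks of the minimum width were 75.4% (67.1% to 82.5%) at the genes and 78.4% in the list.

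Calls were also compared between the controls for each library. Of the 13 antibody 1 peaks against IgG, 10 were found again against input, or 76.9% (46.2% to 95.0%), with 81.3% in the list. The 3 that were not were the 123 bp peaks of CDK4 and CCND3 and the 168 bp peak of CCND3. In the other direction 8 of 13 input peaks were found against IgG, or 61.5% (31.6% to 86.1%), above the 19.5% of the input list. The remaining 5 were the 2 at CDKN1A, the 1 at E2F1 and peaks of 124 and 123 bp at CDKN1B. All were 145 bp or narrower and lay inside polymerase peaks. In the input list polymerase covered 50.5% of the CDKN1A window, 64.1% of the CDKN1B window and 27.6% of the E2F1 window. The matching share over all antibody 1 peaks found against input alone was not computed. For polymerase 51 of 55 IgG peaks, or 92.7% (82.4% to 98.0%), were found again, with 89.4% in the list, and for antibody 2 116 of 130, or 89.2% (82.6% to 94.0%), with 93.2%. Of the input peaks, 46 of 67 for polymerase, or 68.7% (56.2% to 79.4%), were found against IgG, with 52.4% in the list. For antibody 2 it was 116 of 123, or 94.3% (88.6% to 97.7%), with 89.1%. The antibody 1 share was the lowest in both directions, but over 13 peaks its intervals include the polymerase shares. At CCND2, CDK6 and CDKN1B every antibody 1 peak called against IgG was therefore present under both controls.

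The 5 kb limit of the windows excluded no antibody 1 peak close by: the outermost one inside lay 4319 bp from the CDK4 span (269 bp wide) and the next outside lay 11702 bp from the E2F1 span (123 bp). For polymerase a 145 bp peak at CDKN1A lay 4951 bp from the span and a 155 bp peak at E2F1 5212 bp from it. For antibody 2 the corresponding peaks, both of 123 bp, lay 4926 bp from CDK4 and 5734 bp from CDKN1B.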

How the data were processed

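Peak lists of 3 ChIP libraries were used, each called against IgG and against input. The authors deposited only the chromosome, start and end of each peak, and list names state which control was used, with a q cutoff of 0.1. MACS2 2.0.9, Bowtie 0.12.7, SAMtools and build hg19 appear in the submitters' processing notes, without roles or settings. How duplicates were handled was not given in the sources used here. The antibody label set each sample's group. Starts are printed counted from 1.

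The 7 genes and their hg19 spans, the windows and the comparisons were chosen with earlier results of these data known. Every antibody 1 peak against IgG and the widest peak of the other libraries at each gene are named (for CDKN1A and E2F1, the antibody 1 peaks against input); further peaks were named after their values were seen. Peaks overlapped when they shared at least 1 bp. Surroundings were the 500 kb on each side of a window. Tiles of 10 kb ran between the first and last position that any list reaches. The overlap code was tested on simulated data against bedtools. Strands came from RefSeq GRCh38.p14, and for CCND2 from textbook knowledge; that reference also gave neighbouring genes and promoters. Alternatives were the other control, width, flank and overlap limits. Other genes of the pathway, exons and introns, genes of like pattern and cell line markers were not analysed here, since no annotation of hg19 was used. Python 3.11.15, NumPy 2.4.6, pandas 2.3.3, SciPy 1.17.1 and matplotlib 3.10.9 were used.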

Additional observations from a re-analysis of the deposited data

How the results depend on the processing

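Of 68 values recomputed under other settings, 59 stayed within a factor of 1.5 (counts) or within the exact interval (shares). Many could hardly move by this rule, since gene counts cannot exceed 7 and the intervals of the antibody 1 shares are wide. A count can also stay the same while its genes change, as for antibody 1 around the 5′ end against input. The tally therefore does not measure robustness. With peaks of 200 bp or wider only, antibody 1 had 4 peaks at the 7 genes, antibody 2 had 18, and 3 genes kept an antibody 1 peak around the 5′ end. Without the flank, antibody 1 had 8 peaks and polymerase 34, and 1 gene, CDK6, had an antibody 1 peak in both other lists; fewer bases are searched there by construction. Requiring 50% of the antibody 1 peak to be covered by each list also left 1 such gene, CDKN1B. Without CDK6 and CCND3, antibody 2 had 40 peaks. In the input lists 84.6% (54.6% to 98.1%) of antibody 1 peaks overlapped polymerase, with 44.9% of the whole list, in place of 53.8% with 55.2%; the cause was not tested. Genes with an antibody 1 peak were 5 against IgG and 7 against input. No paired analysis was possible because each antibody has 1 library, and no library could be left out. Depth is unknown, so how many reads support the narrow peaks was not tested.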

Other observations

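Beyond the windows, the 7 genes differed in how isolated their antibody 1 peaks were. The 1 Mb around the CCND2 window (500 kb on each side) held 0 further antibody 1 peaks against IgG, beside 9 of polymerase and 177 of antibody 2. Around CDK6 there were 4, 17 and 159, and around CDKN1B 9, 16 and 175. The surroundings of CDK4 held 17 antibody 1 peaks, 83 polymerase peaks and 216 antibody 2 peaks, and those of CCND3 16, 49 and 264. CDKN1A and E2F1, which had no antibody 1 peak against IgG, had 14 and 8 in their surroundings, or 1.4 and 0.8 per 100 kb. Their windows measured only 20.8 and 20.7 kb, so at these densities a window without a peak is ordinary.

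The promoter of CDKN1A in GRCh38.p14 holds 4 GC boxes and none of the other motifs searched, with 76.4% G and C. The printed promoters of CCND3 and E2F1 hold 74.4% and 72.4%. The inner CCND3 starts hold 2 and 0 GC boxes and 1 CCAAT box each.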
